A study of Homo sapiens with 15 samples.

Results

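The pyruvate dehydrogenase complex and the enzymes that switch it on and off were followed in HepG2, a human liver cancer cell line, through 10 genes taken by their symbols from the deposited table of 39133 genes. The genes were the 4 pyruvate dehydrogenase kinases (PDK1, PDK2, PDK3 and PDK4), the phosphatase catalytic subunits PDP1 and PDP2, and PDHB, PDHX, DLAT and DLD of the complex itself, and all 10 were among the 20309 genes that passed a filter on low counts and were tested. Messenger RNA was selected by its poly(A) tail and sequenced in 15 libraries, 3 in each of 5 groups. Control cells received neither agent, and the palmitate group received palmitate, the saturated fatty acid that the series uses to make the cells insulin resistant, at a labelled 200 mM for 48 h, a unit that may not be the one meant. The low, medium and high groups received palmitate at the same labelled concentration and, besides, sodium butyrate at 0.5, 1 and 1.5 mM. Their library names give 24 h of palmitate and 24 h of butyrate. The control names give 48 h. No group received butyrate without palmitate, and none is labelled with 24 h of palmitate and no butyrate. In a comparison with the palmitate group, an effect of butyrate and one of a shorter time on palmitate alone therefore cannot be told apart. All libraries are of wild type cells and carry the same batch label.

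Total counts ran from 35349827 to 61086976 per library, and levels are given in CPM, counts scaled to the library total by the TMM method, as mean ± SD of 3 libraries. Transcripts of hepatocyte markers were present at a summed 5683 to 7488 FPKM (all 12 detected in every group), and PTPRC, the pan-leukocyte marker, had at most 3 counts in any library. The hepatocyte sum was 6299 to 7263 in palmitate and 5683 to 5872 in high butyrate, where 2 of the 12 rose and 8 fell (median log2 -0.29). ALB stood at 1506 to 2049 in palmitate against 873 to 921 in high, and APOA1 at 641 to 806 against 1397 to 1725. Marker lists of other cell types, in summed FPKM, also differed with high butyrate. The 4 cholangiocyte genes summed to 194.6 to 220.5 in palmitate and 393.6 to 424.3 in high, but only 1 of them rose and 2 fell (median log2 -0.59): KRT19 carried the sum, at 76.3 to 84.4 against 317 to 344, while EPCAM stood at 81.6 to 111 against 42.3 to 44.1. The sum of the 5 leukocyte and Kupffer genes, nearly all of it LYZ, was 1140 to 1422 in palmitate and 561.8 to 632.6 in high. Of the 2 tested, 1 rose and 1 fell (median log2 0.62), with CD14 at 0.350 to 0.427 against 2.27 to 2.74. The sum of the 4 endothelial genes was 0.515 to 0.709 in palmitate and 1.44 to 1.93 in high, and of the 3 tested 2 rose and 0 fell (median log2 1.38). The 5 stellate cell and fibroblast genes summed to 5.70 to 6.90 in palmitate and 6.26 to 6.40 in high, yet of the 4 tested 3 rose and 1 fell (median log2 3.49), with COL1A1 at 0 to 0.0145 against 1.75 to 2.07 and ACTA2 at 5.50 to 6.67 against 3.16 to 3.59. The part of these shifts in the results below was not tested. In bulk RNA of this cell line, fewer cells that express a gene and less of its RNA per cell cannot be told apart. Calls rest on the edgeR quasi-likelihood test with Benjamini-Hochberg adjustment over all genes tested, at a threshold of 0.05. The series text calls the replicates biological, and the p-values reflect no more than the variation among the libraries given.

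Pyruvate dehydrogenase turns pyruvate into acetyl-CoA inside mitochondria and so commits carbon from glucose to the citric acid cycle or to fat synthesis. The complex joins the pyruvate-oxidising enzyme E1 (PDHA1 and PDHB), the acetyl-carrying core E2 (DLAT), the dehydrogenase E3 (DLD) and the protein that docks E3 to the core (PDHX). Kinases of the PDK family phosphorylate E1 and stop the complex, and the PDP phosphatases restart it. In liver, PDK4 is known as a gene of fasting and fatty acid load, and PDK1 as a gene of low oxygen.

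The kinases moved apart with high butyrate: PDK1 fell while PDK2, PDK3 and PDK4 rose. PDK1 (ENSG00000152256, chromosome 2, 172555373 to 172608669, hg38), which phosphorylates E1 and is known as a target of the hypoxia factor HIF1A, read 98.8, 79.1 and 79.3 CPM in the control libraries. In palmitate it read 99.7, 81.5 and 82.7 CPM. Low butyrate gave 60.2, 63.4 and 43.1 CPM, medium 63.9, 63.2 and 43.7 CPM, and high 32.9, 30.2 and 34.8 CPM. Control and palmitate libraries overlapped, every butyrate library lay below all of them, and every high library lay below all low and medium libraries. In both low and medium, library 3 stood about 20 CPM under the other two.

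Against palmitate, PDK1 fell 1.59-fold with low butyrate (log2 difference -0.67, SE 0.138, adjusted p = 0.000398), 1.54-fold with medium (log2 -0.63, SE 0.137, adjusted p = 0.000632) and 2.70-fold with high (log2 -1.43, SE 0.141, adjusted p = 8.08e-09). These 3 comparisons share the palmitate libraries. The step from medium to high was itself past the threshold (1.74-fold, adjusted p = 5.03e-05). Against control, which received no palmitate, PDK1 fell 2.63-fold with high butyrate (adjusted p = 1.31e-08).

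PDK4 (ENSG00000004799, chromosome 7, 95583499 to 95596491, hg38), the kinase known to be raised in fasted liver, was close to the limit of detection without butyrate. Its raw counts were 2, 8 and 4 in control and 6, 4 and 4 in palmitate, in libraries of 45627010 to 61086976 counts. Low butyrate gave 20, 21 and 33 counts, medium 20, 49 and 22, and high 76, 118 and 104. All butyrate libraries lay above all control and palmitate libraries, and all high libraries above all low and medium ones.

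As CPM, PDK4 went from 0.0939 ± 0.0282 in palmitate (SD, n = 3) to 0.532 ± 0.0662 with low, 0.662 ± 0.261 with medium and 2.05 ± 0.333 with high butyrate. The fitted rise over palmitate was 5.60-fold with low (log2 difference 2.49, SE 0.44, adjusted p = 7.75e-05), 7.06-fold with medium (adjusted p = 1.23e-05) and 21.5-fold with high butyrate (log2 4.43, SE 0.40, 95% interval 3.59 to 5.26, adjusted p = 2.14e-09). From so few counts in palmitate, these folds are uncertain by at least the width of that interval. All PDK4 counts in control and palmitate were even, as were 69.19% of all counts between 1 and 20. Such counts need not be independent molecules. High exceeded medium 3.05-fold (adjusted p = 0.000158). PDK4 passed the filter on low counts only through libraries in which it was high, so its call adds nothing to a count of members. Even so, its highest level, 2.05 CPM, made it the least abundant of the 10 genes in counts.

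PDK2 (ENSG00000005882, chromosome 17, 50094737 to 50112152, hg38), the kinase with the widest tissue distribution, read 9.07, 8.11 and 8.82 CPM in control and 7.42, 9.56 and 10.6 CPM in palmitate. It read 11.1, 8.37 and 8.60 CPM in low, 7.33, 8.75 and 8.84 CPM in medium and 15.9, 13.95 and 12.6 CPM in high butyrate. The high libraries lay above all 12 others, which overlapped one another. PDK2 rose 1.54-fold over palmitate with high butyrate (log2 difference 0.62, SE 0.130, adjusted p = 0.000213) and 1.70-fold over medium (adjusted p = 4.03e-05). With low butyrate its log2 difference from palmitate was 0.02, with a 95% interval from -0.25 to 0.30. A gene on the opposite strand, SAMD14, shares 2113 of its 5481 exon bases and went from 0.0148 ± 0.0256 CPM in palmitate to 1.25 ± 0.246 CPM in high butyrate. The strand setting of the counting is not given in the sources used here, and the part of SAMD14 reads in the PDK2 count was not tested.

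PDK3 (ENSG00000067992, chromosome X, 24465221 to 24541862, hg38), a kinase known for its high activity and for little inhibition by pyruvate, followed the same course. Control libraries read 27.6, 21.1 and 22.4 CPM and palmitate libraries 23.4, 23.3 and 21.0 CPM. Low butyrate gave 25.3, 23.6 and 24.0 CPM, and medium 26.9, 26.9 and 21.3 CPM. High butyrate gave 35.4, 35.0 and 38.3 CPM, above every other library. The rise over palmitate was 1.61-fold with high butyrate (log2 difference 0.68, SE 0.0964, adjusted p = 1.72e-06), and over medium it was 1.45-fold (adjusted p = 7.54e-05). With medium butyrate the log2 difference of 0.15 from palmitate did not pass (adjusted p = 0.201), and without medium library 3 it was 0.26 (adjusted p = 0.0326).

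**Figure D1:**
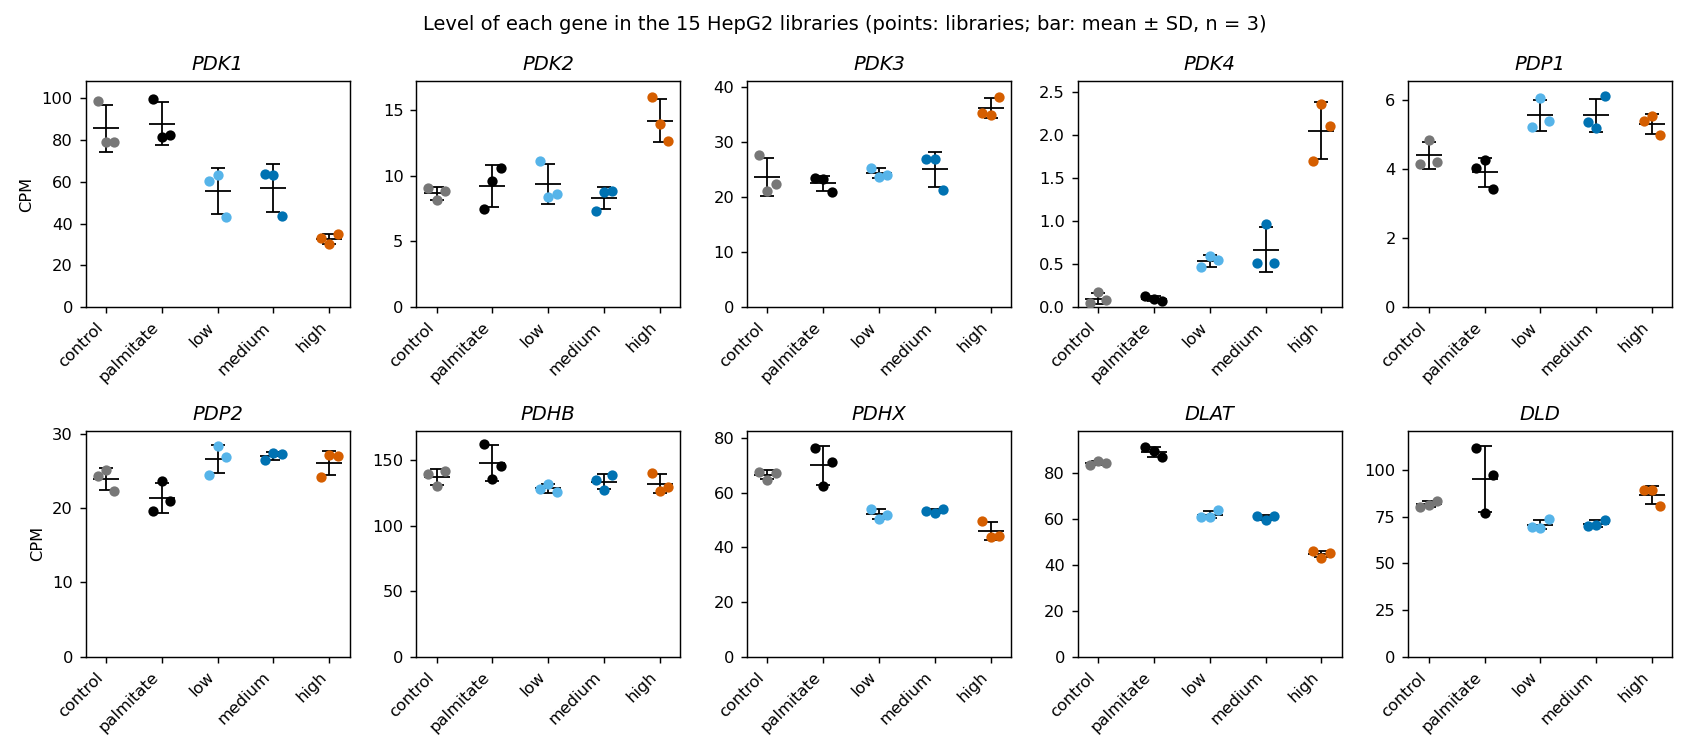
Level in CPM of each of the 10 genes in the 15 libraries, 1 point per library, with the mean and SD of each group of 3. PDK1, PDHX and DLAT step down from palmitate to low and again to high butyrate, PDK2 and PDK3 are raised in high alone, and PDK4 climbs from about 0.1 to 2.05 CPM.

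The share of PDK1 in the kinase pool was lower with butyrate. In FPKM, which divides by gene length and so allows genes to be set side by side, the 4 kinases summed to 9.12 ± 0.971 (SD, n = 3) without either agent and to 8.88 ± 0.228 with palmitate alone. The sum was 7.34 ± 0.830 at the low dose of butyrate, 7.34 ± 1.06 at the medium dose and 8.32 ± 0.168 at the high dose. PDK1 made up 63.2% ± 1.15 of that sum in control and 63.6% ± 4.06 in palmitate. Its share was 50.5% ± 5.01 with low, 51.8% ± 4.33 with medium and 27.7% ± 1.58 with high butyrate. The share of PDK3 went from 18.0% ± 1.07 in palmitate to 33.9% ± 1.70 in high, that of PDK2 from 18.2% ± 3.92 to 32.7% ± 3.44, and that of PDK4 from 0.221% ± 0.0560 to 5.71% ± 1.07. In high butyrate the library values of PDK2, from 29.1% to 35.9%, overlapped those of PDK3, from 32.2% to 35.6%, and of PDK1, from 26.5% to 29.5%.

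Which kinase leads depends on the length used. The deposited FPKM values imply a length of 14845 bases for PDK1 and 13506 bases for PDK3, whose principal coding transcript in GENCODE 29 has 1921 bases. With principal transcript lengths, an alternative chosen after seeing the data, PDK3 had the largest share, 56.9% ± 1.80 in palmitate and 72.9% ± 1.78 in high butyrate. That share may be too high. Reads were counted per gene, and the exons of PDK3 in GENCODE 29 cover 4951 bases, far more than its principal transcript. For PDK1 the exons cover 14883 bases and the principal transcript 14193. PDK1 then went from 30.0% ± 2.57 to 8.89% ± 0.364. Its share had to fall with any lengths, because PDK1 fell while PDK2, PDK3 and PDK4 rose. The share of PDK3 was higher in high butyrate than in palmitate under either length, while the order of the kinases changed. The size of the pool depended on length too: in CPM per 1000 bases of principal transcript the 4 kinases summed to 20.6 ± 0.786 in palmitate and 25.8 ± 0.782 in high butyrate, higher in high, where the FPKM sum was lower. All shares are descriptions without a test.

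**Figure D2:**
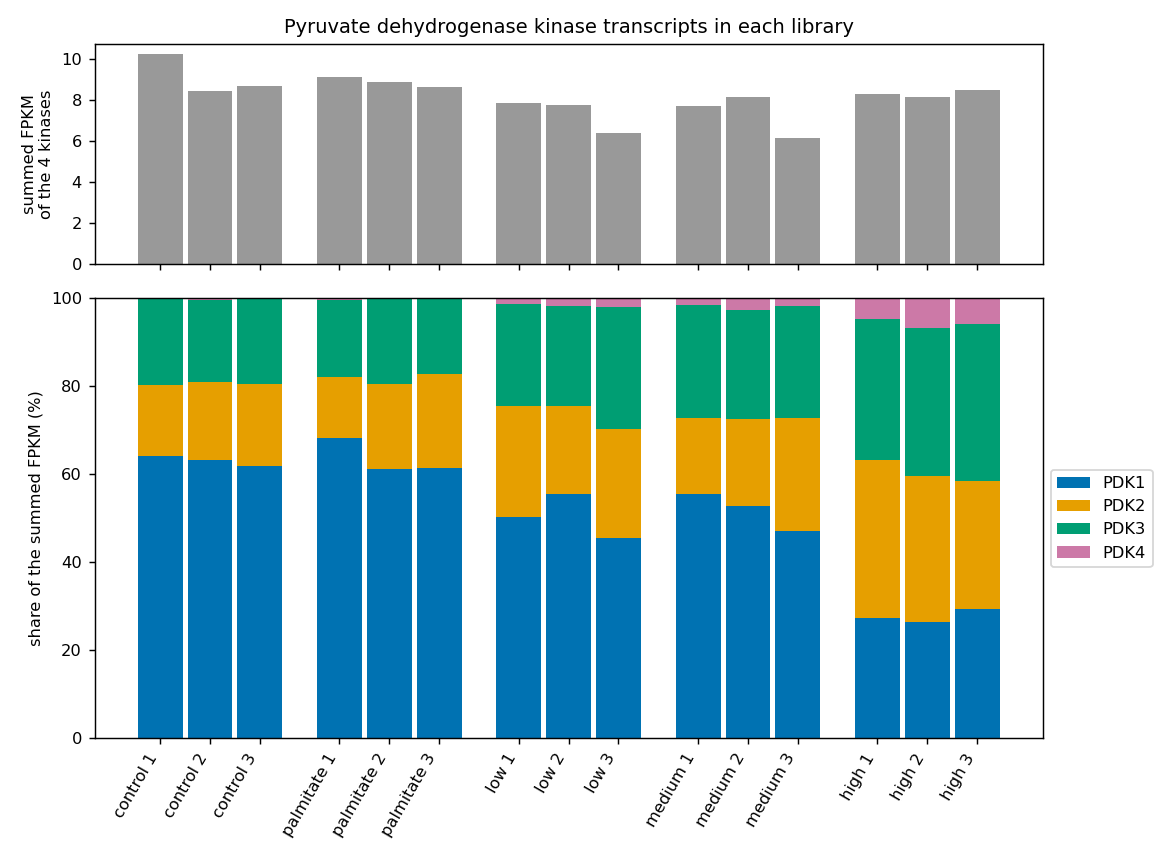
Summed FPKM of PDK1 to PDK4 in each of the 15 libraries (upper bars) and the share of each kinase in that sum in percent (lower stacked bars), with the lengths behind the deposited FPKM. The share of PDK1 is 61.1% to 68.3% in the palmitate libraries and 26.5% to 29.5% in the high libraries, while the sum stays between 6.15 and 10.2.

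The 250 bases before the annotated gene start are shown for a kinase that fell, a kinase that rose and a subunit that moved little (RefSeq, GRCh38.p14, 5′ to 3′ on the strand of the gene). Capitals mark matches on either strand to ACGTG (the core of a hypoxia response element), AGGTCA (a nuclear receptor half-site), GTAAACA (a FOXO site), GGGCGG (a GC box) or CCAAT. PDK1 lies at chr2:172555123-172555372 on the plus strand, PDK4 at chr7:95596517-95596766 on the minus strand and PDHB at chr3:58433833-58434082 on the minus strand.
PDK1: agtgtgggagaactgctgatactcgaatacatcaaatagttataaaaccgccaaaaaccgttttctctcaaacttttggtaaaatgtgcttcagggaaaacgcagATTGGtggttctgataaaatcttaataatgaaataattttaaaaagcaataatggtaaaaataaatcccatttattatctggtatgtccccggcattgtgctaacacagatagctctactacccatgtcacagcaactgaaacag
PDK4: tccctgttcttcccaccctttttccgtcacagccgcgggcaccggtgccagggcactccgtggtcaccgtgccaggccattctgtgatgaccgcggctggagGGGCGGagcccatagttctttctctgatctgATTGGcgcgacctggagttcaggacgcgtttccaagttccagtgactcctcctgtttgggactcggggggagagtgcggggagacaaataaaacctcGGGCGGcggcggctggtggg
PDHB: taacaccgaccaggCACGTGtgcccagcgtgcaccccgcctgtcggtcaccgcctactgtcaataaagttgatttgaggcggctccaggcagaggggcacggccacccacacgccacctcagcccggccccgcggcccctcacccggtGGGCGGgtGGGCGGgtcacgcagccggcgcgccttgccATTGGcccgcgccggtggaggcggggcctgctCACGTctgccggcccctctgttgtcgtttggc
The PDK4 window held 2 GC boxes and 1 CCAAT box, the PDK1 window 1 CCAAT box, and the PDHB window 3 overlapping or separate ACGTG matches, 2 GC boxes and 1 CCAAT box. Among 35116 promoter windows of this length, 18.5% held ACGTG, 12.1% AGGTCA, 2.98% GTAAACA, 42.6% GGGCGG and 32.0% CCAAT. No AGGTCA or GTAAACA stood in the windows of the 9 members examined, which says only that these letters are not in these windows. The PDK4 and PDHB windows end within 50 bases of every coding transcript start in GENCODE 29. The principal PDK1 transcript starts 597 bases past its window, so that window is not the one next to it.

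By a rule that named the 3 genes closest in pattern to each kinase (Pearson correlation of log2 CPM over the 15 libraries, 11037 candidate genes), PDK1 was most like CA9 (r = 0.985), HK2 (r = 0.982) and NME6 (r = 0.981). CA9, a carbonic anhydrase induced by low oxygen, read 12.4 to 18.5 CPM in palmitate, 4.22 to 8.12 CPM in low and 1.67 to 2.25 CPM in high butyrate. HK2, the hexokinase typical of tumour cells, read 470, 447 and 318 CPM in the low libraries and 482, 433 and 342 CPM in the medium ones, with library 3 lowest in both as for PDK1. PDK4 was closest to GSTM2, C19orf25 and PORCN (r = 0.983 for each), PDK3 to ALDOC (r = 0.957), INPP5K and DCAF10, and PDK2 to FAM120B (r = 0.934), XPO6 and NAA80. The 15 libraries share 5 treatments, so these values describe steps between groups and not independent points.

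The phosphatases moved in step with each other and reached their level at the lowest dose. PDP2 (ENSG00000172840, chromosome 16, 66878589 to 66895754, hg38), the phosphatase known to respond to insulin in fat and liver, read 19.6, 23.6 and 20.9 CPM in palmitate. With butyrate it read 24.5, 28.3 and 26.9 CPM in low, 26.4, 27.4 and 27.2 CPM in medium and 24.2, 27.1 and 27.0 CPM in high. Each butyrate library lay above all palmitate libraries, and control, at 24.3, 25.2 and 22.3 CPM, overlapped with low and high. PDP2 rose 1.24-fold over palmitate with low (log2 difference 0.32, SE 0.0808, adjusted p = 0.00269), 1.27-fold with medium (adjusted p = 0.00131) and 1.22-fold with high butyrate (adjusted p = 0.00306).

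PDP1 (ENSG00000164951, chromosome 8, 93857807 to 93926066, hg38), the calcium-stimulated phosphatase, read 4.04, 4.26 and 3.43 CPM in palmitate, 5.23, 6.08 and 5.39 CPM in low, 5.36, 5.21 and 6.12 CPM in medium and 5.41, 5.56 and 5.00 CPM in high butyrate. It rose 1.42-fold over palmitate with low (adjusted p = 0.00201), 1.43-fold with medium (adjusted p = 0.00184) and 1.36-fold with high (log2 difference 0.45, SE 0.126, adjusted p = 0.00320). From medium to high neither phosphatase changed past the threshold: the log2 difference was -0.06 for PDP1 (95% interval -0.32 to 0.20) and -0.05 for PDP2 (-0.22 to 0.12).

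Measured from control the phosphatase differences were smaller. PDP1 was called with low (1.26-fold, adjusted p = 0.0347) and medium butyrate (1.26-fold, adjusted p = 0.0322), not with high (adjusted p = 0.0571). Those calls ended without control library 1 (0.120 and 0.113) or control library 3 (0.111 and 0.104), and with no filter on low counts (0.0888 and 0.0902). Both also ended without high library 1 (0.0556 and 0.0539), on FPKM with a pseudocount of 0.1 (0.0539 and 0.0513), and without library 3 of both low and medium (0.0789 and 0.208). The low call ended without low library 2 (0.124) or 3 (0.05875). The medium call ended without medium library 1 (0.0503) or 3 (0.141). With high butyrate PDP1 was called without control library 2 (0.0397), with DESeq2 (0.0262) or its size factors (0.0285), with library totals (0.0209) and on FPKM (0.0170 and 0.0292). PDP2 was not called from control with any dose (adjusted p from 0.0775 to 0.170), but with medium it was when only the groups compared were fitted (0.0196) or with a replicate block (0.0475). In palmitate itself PDP1 and PDP2 stood below control by log2 -0.17 and -0.16, which did not pass (adjusted p = 0.553 and 0.365).

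Summed kinase FPKM over summed phosphatase FPKM was 2.48 ± 0.334 (SD, n = 3) without either agent and 2.84 ± 0.351 with palmitate alone. At the low, medium and high dose of butyrate it was 1.75 ± 0.281, 1.72 ± 0.262 and 1.93 ± 0.143. All 9 butyrate libraries, from 1.42 to 2.08, lay below the control and palmitate libraries, from 2.14 to 3.17. That order rests on the deposited lengths. With principal transcript lengths, chosen after seeing the data, the ratio was 4.80 ± 0.712 in control, 5.31 ± 0.505 in palmitate, 3.89 ± 0.496 with low, 3.87 ± 0.563 with medium and 5.29 ± 0.327 with high butyrate. High then had a higher mean than control and overlapped both control and palmitate, and low and medium overlapped control, so only low and medium lay below palmitate under both lengths. The ratio says nothing of protein or activity.

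Among the subunits, DLAT and PDHX of the core were lower than palmitate at each dose and lowest with high butyrate, DLD was lower with low and medium, and PDHB differed by at most 0.20 log2 at any dose. DLAT (ENSG00000150768, chromosome 11, 112024814 to 112064390, hg38), the E2 acetyltransferase, read 83.5, 85.2 and 84.5 CPM in control and 91.2, 89.5 and 86.9 CPM in palmitate. It read 61.0, 60.9 and 63.8 CPM in low, 61.3, 59.4 and 61.4 CPM in medium and 45.9, 43.2 and 44.99 CPM in high butyrate. The palmitate, the low with medium, and the high libraries formed 3 levels without overlap.

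Against palmitate DLAT fell 1.44-fold with low (log2 difference -0.53, SE 0.0549, adjusted p = 8.76e-08), 1.47-fold with medium (adjusted p = 3.46e-08) and 2.00-fold with high butyrate (log2 -0.997, SE 0.0554, 95% interval -1.11 to -0.88, adjusted p = 6.77e-13). High fell below medium 1.36-fold (adjusted p = 7.26e-07). Control libraries all lay below palmitate libraries, but the difference of 0.08 log2 did not pass (adjusted p = 0.521).

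PDHX (ENSG00000110435, chromosome 11, 34915829 to 35020591, hg38), the protein that holds E3 on the core, was likewise lower at each dose, by less. Control libraries read 67.7, 64.8 and 67.4 CPM and palmitate libraries 76.4, 62.4 and 71.2 CPM. Low butyrate gave 54.1, 50.4 and 51.9 CPM, medium 53.3, 52.4 and 54.0 CPM and high 49.7, 43.9 and 44.2 CPM. All butyrate libraries lay below all control and palmitate libraries. PDHX fell from palmitate 1.34-fold with low (adjusted p = 4.29e-05), 1.31-fold with medium (adjusted p = 8.67e-05) and 1.52-fold with high butyrate (log2 difference -0.61, SE 0.0715, adjusted p = 1.28e-07). The step from medium to high, 1.16-fold, passed (adjusted p = 0.0155), but not without high library 2 (0.0689) or high library 3 (0.0656), nor with library totals alone (0.0634). APIP, on the opposite strand, shares 259 of the 3760 exon bases of PDHX and was also lower than palmitate, 1.26-fold with low, 1.31-fold with medium and 1.53-fold with high butyrate, at 18.0 ± 4.57 CPM in palmitate and 11.7 ± 1.65 CPM in high. Its part in the PDHX counts was not tested.

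DLD (ENSG00000091140, chromosome 7, 107890970 to 107931730, hg38), the E3 that pyruvate dehydrogenase shares with its sister complexes, had the widest spread in palmitate: 112, 76.7 and 97.3 CPM, against 80.1, 81.4 and 83.6 CPM in control. It read 69.6, 69.03 and 73.7 CPM in low, 70.3, 70.4 and 73.3 CPM in medium and 89.3, 89.2 and 80.9 CPM in high butyrate. Low and medium lay below every control and palmitate library, and high overlapped both.

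DLD fell from palmitate 1.35-fold with low (adjusted p = 0.000480) and 1.34-fold with medium (adjusted p = 0.000556) and was not called with high butyrate (log2 difference -0.14, 95% interval -0.33 to 0.05, adjusted p = 0.167). It rose 1.21-fold from medium to high (adjusted p = 0.0127), a call that ended without high library 2 (adjusted p = 0.0505). Palmitate library 2 decided other calls: without it DLD was higher in palmitate than in control (log2 0.35, adjusted p = 0.00677) and lower in high butyrate than in palmitate (log2 -0.28, adjusted p = 0.000883). From control, where the spread was small, DLD was lower by log2 -0.21 with low and -0.20 with medium butyrate, not past the threshold in the fit of all libraries (adjusted p = 0.0706 and 0.0833) but past it when only the groups compared were fitted (0.00281 and 0.00420). LAMB1, on the opposite strand, shares 70 of the 5299 exon bases of DLD and was the more abundant gene, at 350 ± 16.5 CPM in palmitate, 409 ± 6.84 CPM in low and 271 ± 4.63 CPM in high butyrate. Its part in the DLD counts was not tested.

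PDHB (ENSG00000168291, chromosome 3, 58427630 to 58433857, hg38), the E1 beta subunit, stayed between 126 and 162 CPM in all 15 libraries. Its mean was 137 ± 5.91 CPM without either agent and 148 ± 13.6 CPM with palmitate alone. The low, medium and high doses of butyrate gave 128 ± 3.29, 133 ± 5.66 and 132 ± 7.09 CPM. The differences from palmitate were log2 -0.20 with low (adjusted p = 0.0185), -0.15 with medium (adjusted p = 0.0767) and -0.16 with high butyrate (adjusted p = 0.0387). Without palmitate library 1, the highest of all, low (log2 -0.13, 0.0971) and high (log2 -0.10, 0.170) lost their calls. The high call was also lost with DESeq2 (log2 -0.12, 0.116), and with library totals or on FPKM the difference was log2 -0.02. From control no dose was called (adjusted p from 0.296 to 0.679). Set against PDHB in FPKM, DLAT was thus the subunit whose share of the 4 measured subunits fell most, from 14.8% ± 1.46 in palmitate to 9.38% ± 0.319 in high butyrate, while PDHB went from 38.9% ± 0.707 to 44.3% ± 0.824.

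**Figure D3:**
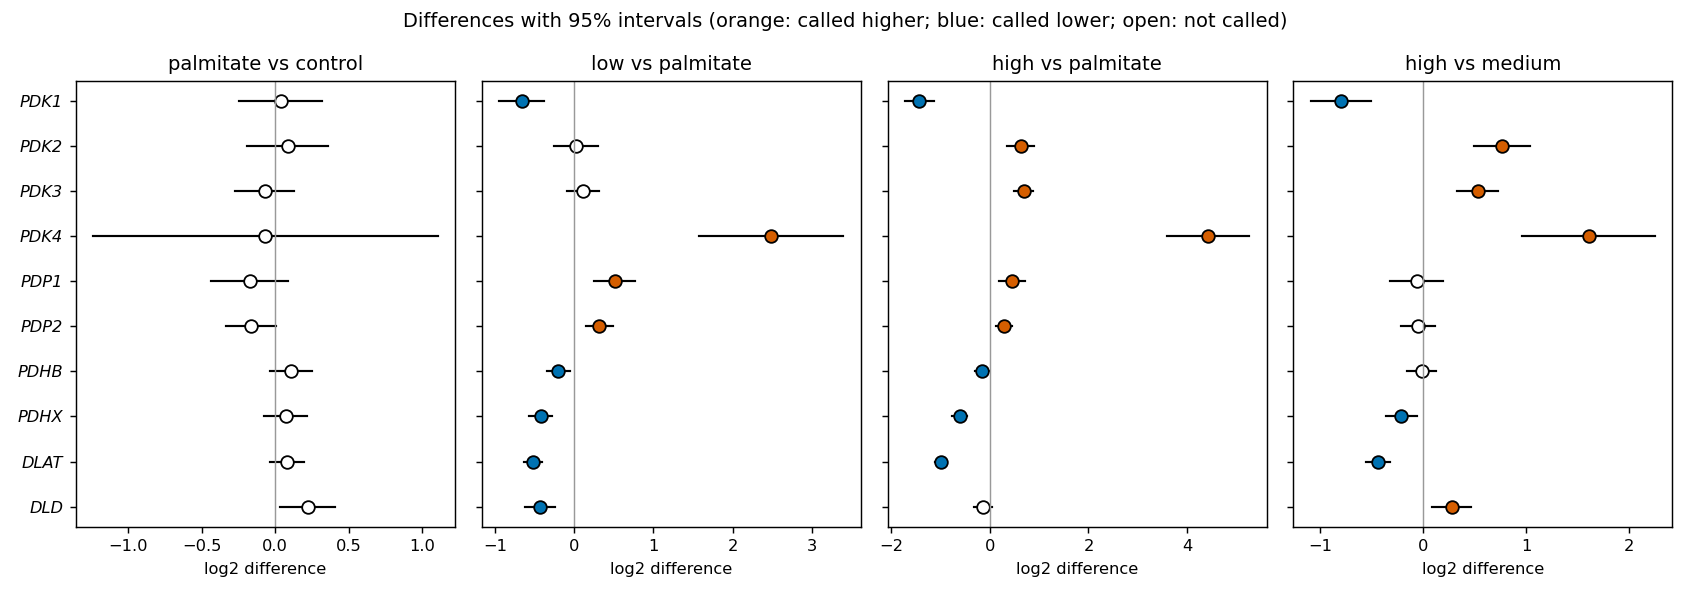
Log2 difference of each of the 10 genes with its 95% interval in 4 comparisons, filled where the adjusted p is under 0.05 (edgeR). With palmitate alone every point is open, with low butyrate 8 are filled and with high butyrate 9, and from medium to high the phosphatases and PDHB are open. The horizontal scale differs between panels.

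Palmitate alone against control asked what the fatty acid did to these genes, and 0 of 10 were called, where 0.108% of all genes tested were, 0.0345% higher and 0.0739% lower. DLAT alone had libraries that did not overlap, as did 16.1% of all genes. At an unadjusted p under 0.05 there was 1 member, DLD, and DESeq2 called 0 members. Palmitate library 2 decided the count over all genes: 22 were called with it and 1175 without it, DLD among them, and DESeq2 called 220 with all libraries. The intervals still leave room: for PDK1 the log2 difference was 0.04 (95% interval -0.25 to 0.32), for PDK2 0.09 (-0.19 to 0.36), for PDK3 -0.07 (-0.27 to 0.13) and for PDK4 -0.07 (-1.24 to 1.11). For PDK4 that interval spans more than 1 log2 unit on either side of 0.

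With low butyrate 8 of 10 members were called against palmitate, 3 higher and 5 lower, where 49.9% of all genes tested were called (25.9% higher, 24.0% lower). Without PDK4, whose call the filter favours, 7 of 9 were called with low, 6 with medium and 8 with high butyrate, 6 from medium to high, and 4, 4 and 5 against control. Low and palmitate libraries were fully separate for 9 of 10, against 53.6% of all genes. Medium butyrate gave 7 of 10, 3 higher and 4 lower (51.5% of all genes, 27.1% higher and 24.4% lower), with 7 fully separate (53.7% of all genes). High butyrate gave 9 of 10, 5 higher and 4 lower (71.6% of all genes, 37.7% higher and 33.8% lower), with 8 fully separate (72.1% of all genes). The median log2 difference of the members was -0.09, -0.15 and 0.07 with low, medium and high butyrate, beside 0.02, 0.03 and 0.06 over all genes.

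Between the low and the medium dose 0 of 10 were called, as were 0.00% of all genes by edgeR and 0 by DESeq2, with 490 genes at an unadjusted p under 0.05 and 0 of the members among them. No member had fully separate libraries between these doses, where 8.15% of all genes did. From medium to high 7 of 10 were called, 4 higher and 3 lower (55.6% of all genes, 26.9% higher and 28.7% lower), and 7 were fully separate (63.6% of all genes). Against control, low butyrate called 2 members higher and 3 lower (44.4% of all genes, 23.7% higher and 20.7% lower), with 6 fully separate (57.2% of all genes). Medium called 2 higher and 3 lower (46.9% of all genes, 25.2% higher and 21.7% lower), with 7 fully separate (57.6%). High called 3 higher and 3 lower (70.0% of all genes, 36.9% higher and 33.1% lower), with 7 fully separate (75.2%). PDK1, PDHX and DLAT were lower and PDK4 higher than control at each dose.

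Other genes around the complex, from lists chosen with earlier results of these data known, were called as follows with high butyrate against palmitate. Of 14 tested genes of the remaining E1 subunits, lipoate synthesis and thiamine supply, 4 rose and 7 fell (median log2 -0.24). The thiamine transporter genes went opposite ways: SLC19A3 rose 4.27-fold (adjusted p = 3.48e-16), from 19.6 ± 0.809 to 83.8 ± 2.37 CPM, while SLC19A2 fell 2.72-fold to 17.5 ± 1.15 CPM (adjusted p = 1.05e-12). NDUFAB1, the acyl carrier on which lipoate is built, fell 1.90-fold (adjusted p = 1.03e-10). PDHA1, the E1 alpha subunit that the kinases phosphorylate, named here for its role and outside the rule for named genes, fell 1.23-fold with low butyrate, from 123 ± 12.02 to 100.2 ± 4.94 CPM (adjusted p = 0.00267), and stood at 98.6 ± 10.4 CPM with high (adjusted p = 0.000757). Against control it was called with no dose (adjusted p from 0.134 to 0.275).

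Of 13 tested genes for pyruvate entry and its other fates, 3 rose and 6 fell (median log2 -0.02). MPC1, a subunit of the carrier that brings pyruvate into mitochondria, fell 1.95-fold with low butyrate, from 26.2 ± 3.78 to 13.4 ± 1.27 CPM (adjusted p = 9.71e-08), and 2.53-fold with high (adjusted p = 1.47e-10). PKLR, the liver pyruvate kinase, fell 2.91-fold with high butyrate (adjusted p = 8.70e-12), and its step from medium to high was log2 -1.69. LDHD, a lactate dehydrogenase for the D form, rose 11.98-fold to 26.9 ± 1.50 CPM (adjusted p = 6.45e-16). In the citric acid cycle 2 of 14 genes rose and 7 fell (median log2 -0.21), among them IDH3B (2.18-fold lower), SUCLG2 (2.62-fold lower) and FH (1.96-fold lower), all with an adjusted p of at most 2.24e-11.

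Of 12 genes of the sister complexes, which share DLD, 4 rose and 2 fell (median log2 0.00). BCKDK, the kinase of the branched-chain complex and a relative of the PDK family, rose 2.00-fold from 54.3 ± 4.68 to 109 ± 6.19 CPM (adjusted p = 8.62e-11). OGDHL and DHTKD1, E1 enzymes of other 2-oxoacids, rose 2.66-fold and 2.17-fold. DLST, the E2 of the oxoglutarate complex, differed from palmitate by log2 -0.02 and was not called.

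Among 18 known transcription regulators of PDK genes, 7 rose and 6 fell (median log2 -0.01). NR0B2, a nuclear receptor that represses, dropped 6.46-fold from 137 ± 11.1 to 21.2 ± 0.389 CPM (adjusted p = 5.23e-17), PPARG fell 5.50-fold (adjusted p = 5.57e-15) and PPARD, a fatty acid receptor, rose 2.72-fold from 25.2 ± 2.61 to 68.6 ± 1.71 CPM (adjusted p = 8.19e-14). HIF1A itself was not called (log2 -0.04). Of 16 HIF1A targets 7 rose and 7 fell (median log2 0.00), with CA9 7.89-fold lower, SLC2A1, the glucose transporter, 1.86-fold lower and ANKRD37 5.02-fold higher. Of 13 tested PPAR alpha targets 4 rose and 4 fell (median log2 0.00). CREB3L3, a liver factor of fasting, rose 11.7-fold (adjusted p = 7.73e-16), and FABP1 fell 2.93-fold and ACADM 2.19-fold. The part of HIF1A or PPAR alpha in the levels of PDK1 and PDK4 was not tested. Over all genes tested, 37.7% were called higher and 33.8% lower in this comparison, and the median log2 was 0.06.

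**Figure D4:**
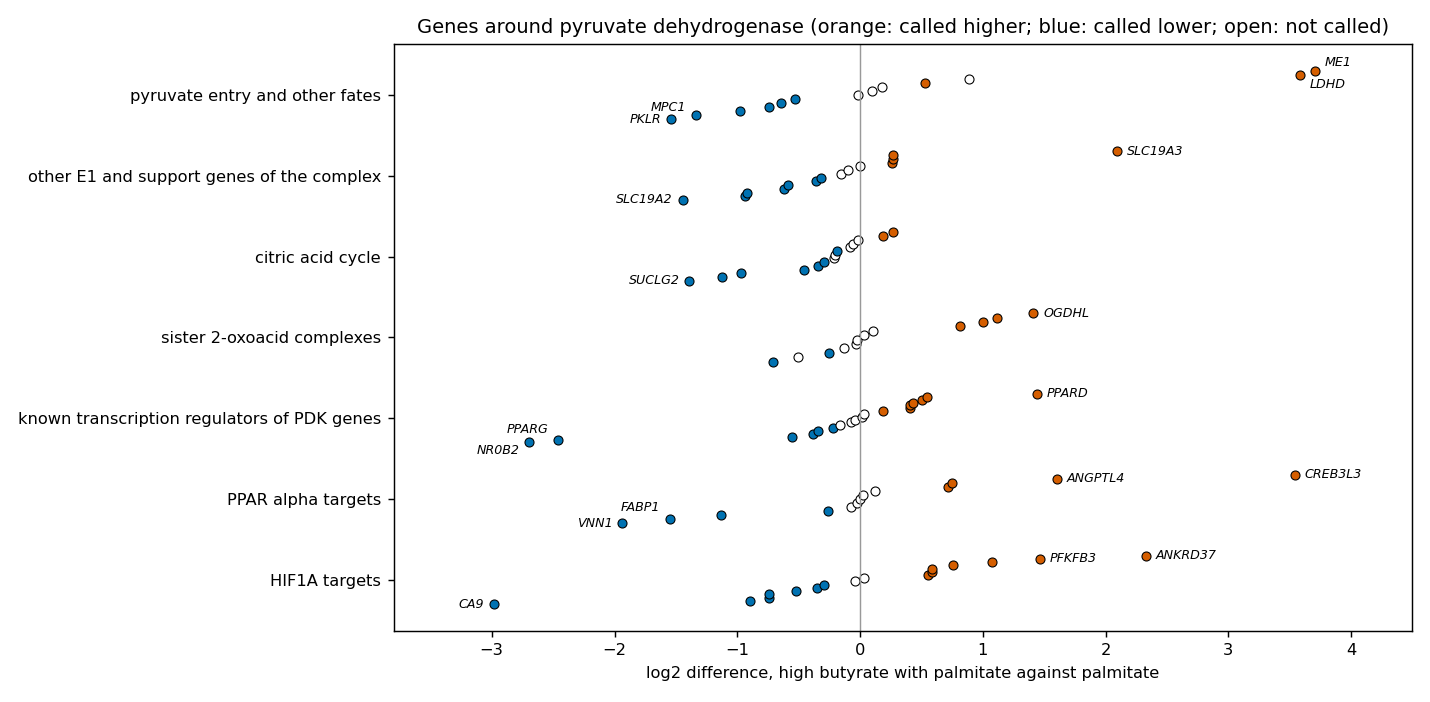
Log2 difference of high butyrate with palmitate against palmitate for each tested gene of 7 lists around pyruvate dehydrogenase, 1 point per gene, filled where called by edgeR at an adjusted p under 0.05, with names for called genes beyond 1.2 log2. Each list holds genes on both sides of 0.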

How the data were processed

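The deposited table gives raw counts per Ensembl gene for 15 libraries, with no normalization, and FPKM values made by the authors from them. Per the submitters' processing notes the tools were FastQC, HISAT2, featureCounts and DESeq2 with GRCh38 or hg38. Versions, annotation release and strand setting are not given in the sources used here. The share of even numbers was 69.19% among counts between 1 and 20 and 50.48% among those between 100 and 1000, so a count need not be an independent molecule. Counting limits cover counting error only.

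Genes were kept by filterByExpr with the 5 groups, scaled by TMM and fitted with the edgeR quasi-likelihood test, 1 coefficient for each group (edgeR 4.0.16, R 4.3.3). The SE was derived from that test. The pipeline was tested on simulated counts. Alternatives were DESeq2 (1.42.0), its size factors, library totals, no filter, the groups compared alone, a replicate block, limma-trend on log2 FPKM with a pseudocount of 1 or 0.1 (limma 3.58.1), and leaving out each library. Members and lists were chosen with earlier results of these data known. Named genes were the 10 members, up to 3 called genes with the smallest adjusted p per list and comparison, and 3 genes closest to each kinase. No replicate columns were identical. Positions are from GENCODE 29, sequences from RefSeq (GRCh38.p14), with 9 members shown or searched. Figures were drawn with matplotlib 3.10.9.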

Additional observations from a re-analysis of the deposited data

How the results depend on the processing

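The number of members called stayed within 1.5 times its value in each of the 9 comparisons under every alternative run except 1: without palmitate library 2, 1 member (DLD) was called with palmitate alone in place of 0. Leaving out single libraries gave 0 to 1 members for palmitate against control. Of 90 gene and comparison pairs, 76 kept their call, or lack of one, under each of the 24 settings that gave them a value (PDK4 gave none for palmitate against control with the 6 libraries alone). A change of sign in a difference called by neither fit was not counted as a change. The other 14 pairs involved PDHB, DLD, PDP1, PDP2, PDHX or PDK3, and no called difference changed direction. Same-numbered libraries did not deviate together (30 correlations from -0.0598 to 0.0522), and with the replicate block the members called were 0, 8, 7, 9, 0, 7, 5, 6 and 6 in the order palmitate against control, low, medium and high against palmitate, medium against low, high against medium, and low, medium and high against control. That block added 1 call, PDP2 with medium butyrate against control (adjusted p = 0.0475). Without library 3 of both low and medium, in which PDK1 stood apart (chosen after seeing the data), the counts in the same order were 0, 8, 8, 9, 0, 6, 5, 4 and 6, and PDK1 kept its calls. Library totals alone moved the median log2 difference of all genes from 0.06 to 0.20 with high butyrate against palmitate.

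With principal transcript lengths the share of PDK1 among the kinases was, for control, palmitate, low, medium and high, 28.9%, 30.0%, 20.1%, 20.3% and 8.89%, and that of PDK3 58.9%, 56.9%, 65.2%, 66.3% and 72.9%. The kinase to phosphatase ratio was then 4.80, 5.31, 3.89, 3.87 and 5.29. These shares and ratios rest on 1921 bases for PDK3, fewer than its exons cover. Over all genes, palmitate against control gave 22 calls (31.8% higher), but 220 with DESeq2 (56.8% higher), 40 with library totals (12.5% higher), 600 without a filter, 3 with the 6 libraries alone, 9 and 7 on FPKM, and 4 to 1175 when single libraries were left out (219 without palmitate library 1, 1175 without palmitate library 2, at most 12 without any other). Medium against low gave 0 calls, 39 without a filter and 1 with the 6 libraries alone or on FPKM. The causes were not tested. Depth limits PDK4, at 2 to 8 counts without butyrate.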
